A study of Homo sapiens with 4 samples.

Results

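The comparison described here is that of 100% against 40% confluence in BJ-TE cells carrying a control short hairpin RNA (shRNA), labelled ns. The BJ-TE line goes back to BJ, a strain of fibroblasts from human foreskin. The series has 4 groups of 1 Affymetrix array each: ns shRNA at 40%, ns shRNA at 100%, p73 shRNA at 40% and p73 shRNA at 100% confluence. The p73 hairpin is directed at the transcription factor p73 (TP73), and all 4 cultures were the same line carrying a hairpin. The time in culture, the medium, the vector and the number of clones are not given in the sources used here. The members were the 2 ns shRNA arrays of the 4, and every gene on them was taken: 6759 of 11963 genes were kept because their mean over all 4 arrays reached an intensity of about 111. That mean includes the brighter arrays of a gene, so a gene that was dim at 40% confluence could pass through its value at 100%.

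Each group held 1 array, so no ratio below has a replicate, an error or a test. A ratio is the log2 of the intensity plus 11.5 at 100% confluence minus the same at 40%, so +1 is 2-fold higher and -1 is 2-fold lower in confluent cells. Genes past 2-fold are counted as described, not as shown to differ. The pair of p73 shRNA arrays gave the same ratio without sharing an array. It is set beside the ns ratio, but it comes from cells with another hairpin and is no replicate. The spread inside an array could be seen only between probe sets of the same gene. Over 2231 genes with 2 or more bright probe sets, their ratios differed by a median of 0.27 and by 0.74 at the 90th percentile.

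Fibroblasts stop dividing when a culture fills its dish, a response known as contact inhibition. A dense layer also consumes oxygen, nutrients and growth factors faster than a sparse one, secretes more matrix, and holds cells that have less room to spread. The pathways usually followed in such cultures are therefore the hypoxia-inducible factors (HIF), the BMP and TGF-beta pathways, the Hippo pathway with its effectors YAP and TAZ, growth factor signalling, ribosome synthesis, and the deposition of collagen. Fibroblasts transformed by oncogenes can keep dividing at a density at which normal fibroblasts rest.

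Over the 6759 genes the median ratio was 0.01 and the quartiles were -0.30 and 0.38. At least 2-fold higher at 100% confluence were 382 genes, or 5.65%, and at least 2-fold lower were 178, or 2.63%. At 1.5-fold the shares were 15.6% and 10.2%. Past 4-fold were 50 genes upward (0.74%) and 19 downward (0.281%). The split between both directions depended on how the arrays were scaled. Dividing each array by its median moved the median ratio of all genes by -0.20 and gave 226 genes higher and 332 lower, so 40.5% of the genes past 2-fold were higher in place of 68.2%. Ratios of list members are best read against that shift. The share at least 2-fold higher was 8.64% among the 1690 dimmest genes and 3.31% among the 1690 brightest.

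Median intensities were 106 at 40% and 121 at 100% confluence with ns shRNA, against 104 and 118 with p73 shRNA. Control probe sets for ribosomal RNA stood at a median of 699 on the ns array at 40%, against 279 to 348 on the other arrays. The beta-actin 3' to 5' ratio, a measure of RNA integrity, was 1.24 at 40% and 1.47 at 100% with ns shRNA, and that of GAPDH lay between 0.93 and 1.02 on all arrays. The part of these differences in the gene ratios was not tested. RNA came from whole cultures, so fewer cells that express a gene and less of its RNA per cell cannot be told apart. All 16 fibroblast markers were above the brightness filter, from collagen to PDGF receptors. Their summed intensity was 86062 at 40% and 104949 at 100%, and 6 of the 16 were at least 2-fold higher, where 5.65% of all genes were. Of the epithelial list 4 of 14 passed the filter (KRT10, KRT18, LAMB3 and SFN), and its defining members KRT5, KRT14, EPCAM and CDH1 did not. Of 10 smooth muscle and pericyte markers 5 passed (ACTA2, CNN1, SMTN, CSPG4 and MCAM), with a sum over the list of 3773 at 40% and 3311 at 100%; MYH11 and DES did not. The blood list had LAPTM5 alone, the melanocyte list MITF alone and the endothelial list FLT1 and ENG. TP73, the target of the other hairpin, was below the filter on every array with intensities between 1.65 and 2.09, so these values do not check the hairpin.

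**Figure D1:**
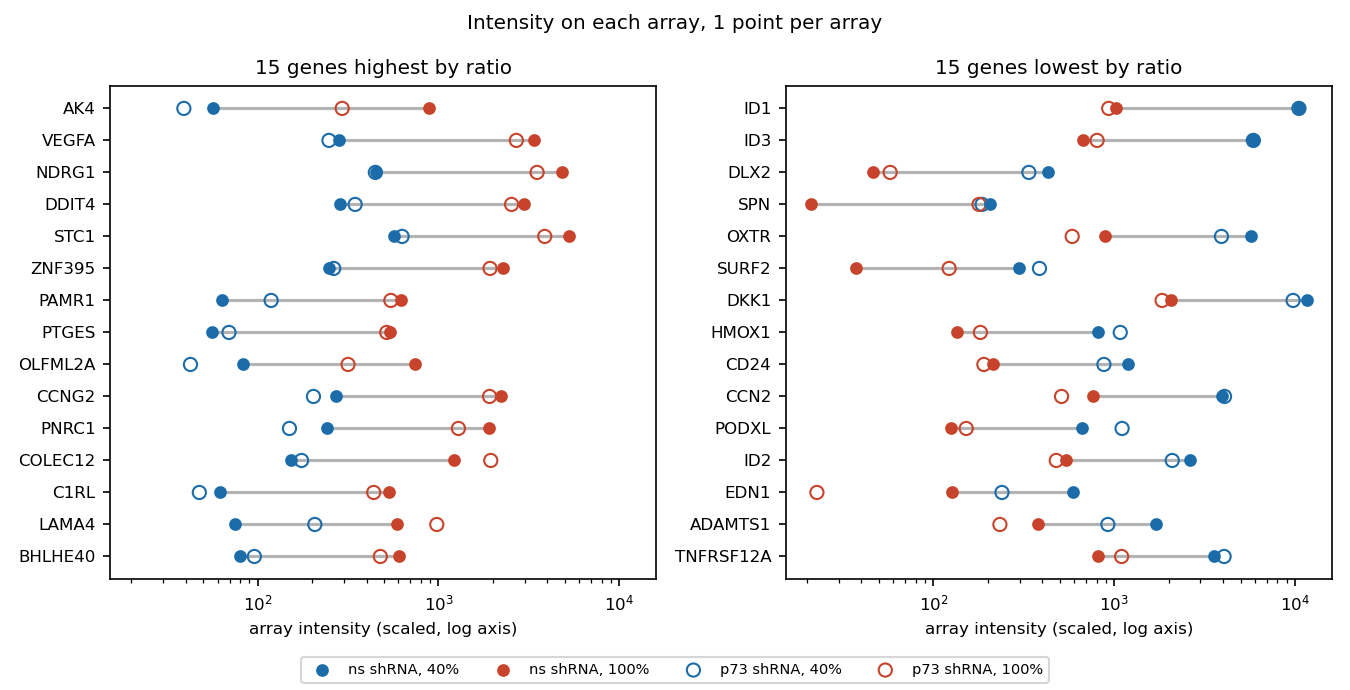
Intensity on each of the 4 arrays (log axis) for the 15 genes with the highest ratio of 100% over 40% confluence with ns shRNA (left) and the 15 with the lowest (right). Filled points are ns shRNA, joined by a line, and open points p73 shRNA; each point is 1 array. AK4 went from 56.7 to 886 and ID1 from 10568 to 1019, and SPN is the gene whose p73 shRNA points lie together, at 186 and 179.

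HIF is a dimer of an oxygen-labile alpha subunit and ARNT. When oxygen is short, prolyl hydroxylases no longer mark the alpha subunit for VHL-dependent destruction, and the dimer binds a short core sequence, ACGTG, near its target genes. Among the regulators themselves 8 of 14 kept genes were higher and 6 lower. HIF1A had an intensity of 5919 at 40% and of 6284 at 100% confluence, and EPAS1, the HIF-2 alpha subunit, 2399 and 3295. ARNT had 222 and 409 (0.85) by its brightest probe set, while its other bright probe set stood at -0.48. The oxygen sensor P4HTM was at 0.67 and CUL2, of the VHL ligase, at -0.64. ARNT2 was the only one of the 14 kept members of the HIF system past 2-fold (7.14% against 5.65% of all genes), at 93.9 and 201 (1.01). It was below the filter level on both sparse arrays, and it stayed under 2-fold after quantile, median or 75th percentile scaling.

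The targets differed far more. Of 33 kept genes on a list of hypoxia-inducible genes outside glycolysis, 20 were at least 2-fold higher at 100% confluence, or 60.6% against 5.65% of all genes, and 2 were at least 2-fold lower. The median ratio of the 33 was 1.36. With p73 shRNA 17 were at least 2-fold higher and 3 lower. The 20 covered mitophagy receptors, collagen hydroxylases, histone demethylases and secreted factors, and 7 of the 15 highest ratios on the array belonged to the list. Among the 20, AK4, BHLHE40 and BHLHE41 reached the filter level on the dense arrays alone.

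The HRE core ACGTG, searched on both strands from 250 bases before to 50 bases after the start, was found in 14 of the 25 hypoxia-list promoters that matched the RefSeq table, or 56%. It was found in 28.4% of the 5716 matched promoters of all kept genes and in 24% of the 308 promoters of genes at least 2-fold higher. The share was 32.2% in the 146 promoters of genes at least 2-fold lower. In the 42 promoters of the nucleolar list described below, whose members were mostly lower, it was 59.5%. A match is a description of letters, not a binding site, and a palindromic E-box, CACGTG, counts as 2 overlapping matches. The following 4 promoters belong to genes at least 2-fold higher and were picked because they hold matches. Each is the 250 bases before the RefSeq start (GRCh38.p14), 5' to 3' on the gene's strand, with the core in capitals, on whichever strand it reads; AK4 lies at chr1:65147302-65147551 (+), DDIT4 at chr10:72273674-72273923 (+), P4HA1 at chr10:73096867-73097116 (-) and BHLHE40 at chr3:4979187-4979436 (+).
AK4: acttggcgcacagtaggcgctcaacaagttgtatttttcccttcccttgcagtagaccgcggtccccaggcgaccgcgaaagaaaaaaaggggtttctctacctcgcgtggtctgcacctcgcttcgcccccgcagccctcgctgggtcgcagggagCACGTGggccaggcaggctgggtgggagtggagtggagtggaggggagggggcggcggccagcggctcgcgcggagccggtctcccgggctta
DDIT4: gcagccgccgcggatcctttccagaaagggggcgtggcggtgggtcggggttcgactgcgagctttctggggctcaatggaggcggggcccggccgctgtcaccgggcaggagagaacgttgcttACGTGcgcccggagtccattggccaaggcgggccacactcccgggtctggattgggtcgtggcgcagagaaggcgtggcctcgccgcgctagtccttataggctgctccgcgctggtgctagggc
P4HA1: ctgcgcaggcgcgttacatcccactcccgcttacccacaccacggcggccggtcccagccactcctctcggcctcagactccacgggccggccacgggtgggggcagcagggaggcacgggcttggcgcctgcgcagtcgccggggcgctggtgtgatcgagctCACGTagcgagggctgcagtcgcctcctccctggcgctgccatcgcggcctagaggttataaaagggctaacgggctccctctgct
BHLHE40: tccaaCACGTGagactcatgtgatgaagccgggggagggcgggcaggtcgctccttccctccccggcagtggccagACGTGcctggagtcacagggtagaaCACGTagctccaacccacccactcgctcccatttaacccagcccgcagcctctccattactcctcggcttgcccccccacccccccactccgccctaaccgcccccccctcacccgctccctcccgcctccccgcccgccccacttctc

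BHLHE40 held 4 matches, of which 2 form a single E-box, AK4 2 that form a single E-box, and DDIT4 and P4HA1 1 each. BNIP3 and KDM4B had 2 matches each that also form a single E-box, while KDM3A, P4HA2, MXI1, TXNIP and CA12 had none in this window.

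AK4, a mitochondrial adenylate kinase, had the highest ratio on the array. Its intensity was 56.7 at 40% and 886 at 100% confluence with ns shRNA, and 39.1 and 293 with p73 shRNA, which gave ratios of 3.72 and 2.59. Both sparse cultures were dim and both dense cultures bright, and the dense ns culture was the brightest. DDIT4, an inhibitor of the growth kinase mTORC1, went from 285 to 2983 with ns shRNA and from 346 to 2537 with p73 shRNA. BHLHE40, a repressor of transcription that also acts in the circadian clock, had 79.7 and 604 (2.75), and its paralog BHLHE41 84.1 and 234 (1.36).

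On the same list MXI1, a MYC antagonist, had intensities of 264 and 1497 (ratio 2.45; 2.86 with p73 shRNA). TXNIP, which limits glucose uptake and binds thioredoxin, had 544 and 2314 (2.07). The mitophagy receptors BNIP3L (1468 and 4762) and BNIP3 (1637 and 4852) had ratios of 1.69 and 1.56, and 1.89 and 1.48 with p73 shRNA. All of these were more than 2-fold higher with either hairpin.

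Of 7 oxygen-dependent hydroxylases and demethylases on the list, all 7 were higher and 4 at least 2-fold (57.1% against 5.65% of all genes). The histone demethylase KDM3A had 219 and 922 (2.02), and KDM4B 238 and 803 (1.71). P4HA1, a catalytic subunit of the enzyme that hydroxylates proline in collagen, went from 1409 to 4159 (1.55), and P4HA2 from 1879 to 4318 (1.20). The lysyl hydroxylases PLOD1 and PLOD2 stood at 0.78 and 0.57, below 2-fold. CA12, a membrane carbonic anhydrase that handles acid outside the cell, was at 1.07 by its brightest probe set and at 0.89 to 1.57 over 5.

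Secreted factors on the list went different ways. Besides VEGFA and STC1, none of the 10 kept secreted members was at least 2-fold higher, and 2 were at least 2-fold lower. EDN1, the vasoconstrictor endothelin-1, had 596 and 126 with ns shRNA and 240 and 22.7 with p73 shRNA (-2.14 and -2.87). IGFBP3, a binding protein of the insulin-like growth factors, had 907 and 310 (-1.52). Adrenomedullin (ADM) was bright on both arrays, at 10582 and 8379 (-0.34).

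Glycolysis, the classic HIF programme, was uneven. Of 24 kept genes 4 were at least 2-fold higher, or 16.7% against 5.65% of all genes, and none lower; the median was 0.18, and it turned to -0.03 when arrays were divided by their medians. The 4 included isoforms known for restricted expression. ALDOC, the brain-type aldolase, went from 118 to 675 with ns shRNA and from 124 to 631 with p73 shRNA (2.40 and 2.24). ENO2, the neuronal enolase, went from 245 to 1183 (2.22; 1.79 with p73 shRNA). The other members past 2-fold were HK2, an inducible hexokinase (1.20, and 0.72 with p73 shRNA), and PGM1, which links glucose phosphates to glycogen (1.08 and 0.66). PGM1 was under 2-fold after dividing by array medians (0.88), and HK2 after averaging its probe sets (0.92).

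The abundant isoforms of the same steps were within 2-fold. Aldolase A (ALDOA) had 9277 and 9119, and lactate dehydrogenase A (LDHA) 13703 and 13583. ENO1 had 16396 and 12559 (-0.38), and GAPDH, often used as a reference gene, 21128 and 14780 (-0.52). The 3 bright probe sets of GAPDH ran from -0.52 to -0.20. Among other steps PGK1 was at 7789 and 8862 (0.19), and the glucose transporter SLC2A1 at 494 and 524 (0.08).

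**Figure D2:**
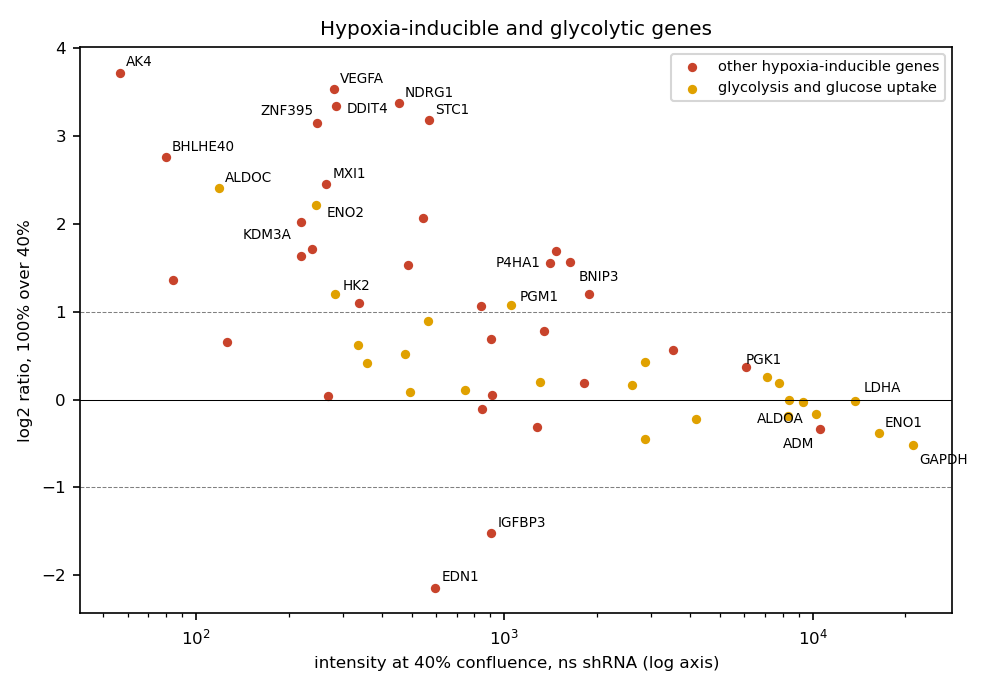
Log2 ratio of 100% over 40% confluence with ns shRNA against the intensity at 40% confluence (log axis), 1 point per gene, for 33 hypoxia-inducible genes and 24 genes of glycolysis and glucose uptake. Dashed lines mark 2-fold; the intensity at 40% is also part of the ratio. ALDOC and ENO2 lie above 2 while ALDOA (-0.02), LDHA (-0.01) and GAPDH (-0.52) lie near or below 0.

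Bone morphogenetic proteins (BMPs) signal through receptor kinases and SMAD1, SMAD5 and SMAD4 to switch on the ID genes, whose products block differentiation-promoting transcription factors. Of 24 kept genes of this group 8 were at least 2-fold lower in confluent cells, or 33.3% against 2.63% of all genes, and 2 were at least 2-fold higher. The targets stood out among the roles, with 4 of 6 at least 2-fold lower (66.7% against 2.63% of all genes) and a median of -2.59. ID3 had 5889 on both sparse arrays, and 674 with ns and 805 with p73 shRNA on the dense arrays (-3.11 and -2.85). ID2 had 2631 and 544 with ns shRNA, and 2096 and 479 with p73 shRNA (-2.25 and -2.10). With ID1, which had the lowest ratio of all genes, these were among the 12 lowest ratios, and each dense culture was below each sparse one.

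DLX2, a homeobox factor, had 432 and 46.5 (-2.94; -2.33 with p73 shRNA), so its dense value was below the filter level. The signal transducers and receptors were closer to level: SMAD1 at -0.13, SMAD4 at -0.26, SMAD5 at 0.51, ACVR1 at 0.15 and BMPR2 at -0.42. Proteins that restrain the pathway were mostly lower too. FST, which captures activins and BMPs, had 2367 and 870 (-1.43), the BMP antagonist GREM1 7849 and 3847 (-1.03), and the ubiquitin ligase SMURF2 5630 and 2367 (-1.25). SMAD7, an inhibitory SMAD, was at 409 and 193 (-1.04; -0.53 with p73 shRNA). CHRDL1, another BMP antagonist, was higher, at 200 and 480 (1.22). BMP2 and BMP4 themselves were below the brightness filter.

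In the TGF-beta group 4 of 16 kept genes were at least 2-fold higher and 2 lower, or 25% and 12.5% against 5.65% and 2.63% of all genes. LTBP1 and LTBP3, which hold latent TGF-beta in the matrix, went from 251 to 1191 (2.20) and from 75.6 to 295 (1.82). The co-receptor TGFBR3 had 238 and 647 (1.40), and the target TGFBI 2245 and 5110 (1.18), against 0.36 with p73 shRNA. TGFB1 was level (505 and 532) and TGFB2 was lower (466 and 215; -1.08). The targets were divided: CCN2, a matricellular protein, had 3951 and 765 (-2.35), against -2.97 with p73 shRNA, and TAGLN, an actin-binding protein, stood at -0.79.

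Genes of the cell cycle engine differed little between the sparse and the dense ns culture. Of 59 kept genes of the G1/S transition and DNA replication none was at least 2-fold higher and 1 at least 2-fold lower, and of 58 kept genes of G2 and mitosis 1 was at least 2-fold higher and none that much lower. Their medians were -0.02 and -0.09, against 0.01 for all genes. The proliferation marker MKI67 had 2037 and 1781 (-0.19) by the brightest of 4 bright probe sets, while the other 3 lay above 0, up to 0.26. The ribonucleotide reductase subunit RRM2 had 11113 and 7982 (-0.48), and the APC activator CDC20 5976 and 3195 (-0.90). The shares past 2-fold, 1.69% and 1.72%, were below the 8.29% of all genes past 2-fold either way. Dividing by array medians made 3 of the G2 and mitosis genes at least 2-fold lower and left none at least 2-fold higher.

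The genes past 2-fold were CDC25A and CDC25C, phosphatases that activate cyclin-dependent kinases. CDC25A had 499 and 175 (-1.46; -1.26 with p73 shRNA) by its brighter probe set, while the other stood at 0.04. CDC25C had 243 and 552 (1.15), against 0.39 with p73 shRNA. By the brightest probe set the mitotic kinase CDK1 had 2472 and 4725 (0.93) with ns shRNA but 4012 and 3947 (-0.02) with p73 shRNA; the lowest of its 3 bright probe sets stood at -0.07 with ns shRNA. RBL2, the pocket protein p130 of resting cells, had 509 and 864 (0.75; 1.19 with p73 shRNA) by its brightest probe set. Its other bright probe set stood at 1.85 with ns shRNA. MYBL2, a factor that drives mitotic genes, had 975 and 720 (-0.43).

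The list promoters of these groups held the letters of their known elements, although their ratios were small. CHR, spelled TTTGAA, was found on either strand in 67.3% of 49 promoters of G2 and mitosis genes against 9.5% of all kept genes, and CCAAT in 73.5% against 38.4%. The E2F letters TTTCGCGC were found in 15.1% of 53 promoters of G1/S genes against 1.2%.

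**Figure D3:**
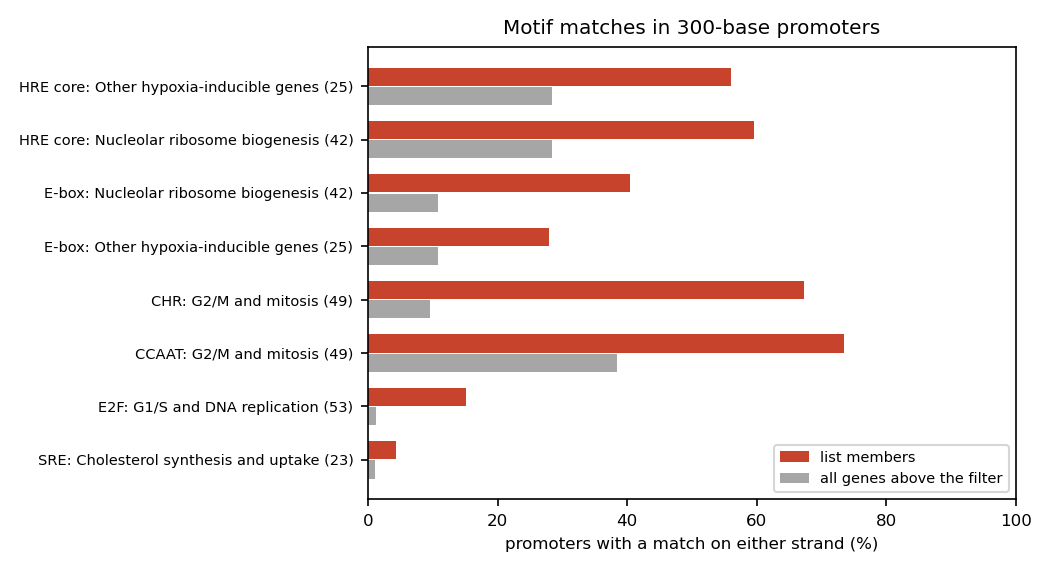
Share of promoters (250 bases before to 50 after the RefSeq start) that hold a motif on either strand, for members of a list (coloured) and for all kept genes with a promoter in the table (grey); the number of promoters is in brackets. The 8 pairs shown were picked after 9 motifs had been searched in 40 lists; the HRE core was found in 56% of the hypoxia list and 59.5% of the nucleolar list against 28.4% of all kept genes.

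Inhibitors and G1 cyclins held the larger ratios of the cell cycle. Besides CDKN1A (197 and 681) and CCNG2, an atypical cyclin of resting cells, CCNG1 had 2190 and 3679 (0.75). The inhibitor CDKN1B, p27, was bright and close to level, at 1804 and 2201 (0.29; 0.64 with p73 shRNA). CCND1, cyclin D1, which couples growth factors to the cycle, had 1853 and 533 with ns shRNA and 934 and 360 with p73 shRNA (-1.78 and -1.35). Its second bright probe set stood at -0.97. CCND3 was at -0.78 and CDK4 at -0.33.

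Ribosome synthesis begins in the nucleolus, where RNA polymerase I copies the ribosomal RNA genes and a large set of processing factors trims and folds the product; many of these factors are MYC targets. Of 49 kept nucleolar genes 45 were lower in confluent cells, 9 of them at least 2-fold (18.4% against 2.63% of all genes), and none was at least 2-fold higher. The median was -0.64, against -0.53 with p73 shRNA, and the number past 2-fold was 12 to 17 under the 3 other scalings. The 49 were spread between -1.98 and 0.20, so most were lower by less than 2-fold.

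The E-box CACGTG, the core that MYC with MAX can bind, was found in 17 of 42 matched nucleolar promoters, or 40.5%, against 10.8% of all kept genes. It was found in 19.9% of 146 promoters of genes at least 2-fold lower and in 8.44% of 308 at least 2-fold higher. The promoter of SRM is shown because this gene, which makes the polyamine spermidine and was grouped with the MYC-linked genes, held the motif and was at least 2-fold lower with both hairpins; the 250 bases before its start lie at chr1:11060019-11060268 (-), GRCh38.p14, with the E-box in capitals.
SRM: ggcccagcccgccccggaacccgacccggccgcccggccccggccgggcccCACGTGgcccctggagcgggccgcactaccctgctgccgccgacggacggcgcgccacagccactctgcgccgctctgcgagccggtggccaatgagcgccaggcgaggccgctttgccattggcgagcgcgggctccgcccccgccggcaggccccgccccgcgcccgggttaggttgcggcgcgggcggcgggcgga

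SRM had 3138 and 1187 with ns shRNA and 3450 and 1300 with p73 shRNA (-1.39 and -1.40). ODC1, the rate-limiting enzyme of polyamine synthesis, had 7136 and 1851, and 8438 and 2257 (-1.94 and -1.90); its promoter window held no E-box. PNO1, an assembly factor of the small subunit, had 1568 and 388 (-1.98; -1.54 with p73 shRNA). NOP16 had 1655 and 582 (-1.49), with -1.72 by its other bright probe set and -0.81 when all its probe sets were averaged. RRS1, an assembly factor of the large subunit, had 1009 and 388 (-1.35). In each of these both dense arrays lay below both sparse arrays. MYC itself had 1444 and 907 (-0.66), against -0.10 with p73 shRNA. Fibrillarin (FBL), the methyltransferase of ribosomal RNA, was at 0.12, and nucleophosmin (NPM1) at -0.33.

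Transcripts of the ribosomal proteins differed less with ns shRNA. Of 26 kept cytosolic ribosomal protein genes none passed 2-fold in either direction, where 8.29% of all genes did. Their ratios had a median of -0.21, against -0.40 with p73 shRNA, and 20 of the 26 had the same sign with both hairpins. After quantile normalization the ns median was -0.01 with 12 higher and 14 lower, so no direction is given for this family. RPS14 had 17379 and 13953, and RPL30 12660 and 14351. Likewise none of 56 kept genes of oxidative phosphorylation passed 2-fold. Their median was -0.05 and changed sign with scaling.

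All 21 kept heat shock and chaperonin genes were lower in confluent cells, with a median of -0.59, and none was lower by 2-fold (1 after dividing by array medians). All 21 were lower under quantile, median and 75th percentile scaling, and the median then lay between -0.79 and -0.52. With p73 shRNA 20 of the 21 had the same sign. HSPD1, the mitochondrial chaperonin, had 14214 and 8553 (-0.73), CCT5, a subunit of the cytosolic chaperonin that folds actin and tubulin, 9068 and 5397 (-0.75), and the co-chaperone STIP1 3177 and 1697 (-0.90). Over the whole array 3318 of 6759 genes had a ratio below 0.

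NRF2 is the transcription factor that answers oxidative and electrophilic stress. Of 26 kept genes of this group, metallothioneins included, 6 were at least 2-fold lower, or 23.1% against 2.63%, and none was at least 2-fold higher. HMOX1, which degrades heme, had 818 and 135 with ns shRNA and 1081 and 182 with p73 shRNA (-2.50 for each). TXNRD1, the cytosolic thioredoxin reductase, had 8764 and 3136 (-1.48), and GCLM, a subunit of the glutathione-making ligase, 3212 and 1317 (-1.28). NQO1 was at -0.84. NRF2 itself (NFE2L2) was level, at 2355 and 2264, and GSR, glutathione reductase, was higher (0.76).

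SLC7A11, the cystine importer that feeds glutathione synthesis, belongs to NRF2 and ATF4 alike and had 2324 and 617 (-1.89; -1.61 with p73 shRNA). ATF4 is the factor that answers amino acid shortage. Of 28 kept genes of its group 6 were at least 2-fold lower (21.4% against 2.63% of all genes). The only member at least 2-fold higher was DDIT4, which was also on the hypoxia list. PSAT1, an enzyme of serine synthesis, had 839 and 204 (-1.98), against -1.01 with p73 shRNA. The paired transporter chains SLC7A5 (2176 and 873; -1.31) and SLC3A2 (1219 and 462; -1.38) import large neutral amino acids. ASNS, asparagine synthetase, was at -1.27, against -0.69 with p73 shRNA.

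Of 30 kept genes of growth factor signalling 9 were at least 2-fold higher and 6 lower, or 30% and 20% against 5.65% and 2.63%. Dividing by array medians gave 4 higher and 6 lower. The ligands named here were on the lower side, but their families were divided. Of 5 kept EGF ligands and receptors 2 were higher and 3 lower. Of 7 kept genes of PDGF, FGF and HGF 4 were higher and 3 lower. FGF5 had 506 and 114 with ns shRNA and 773 and 180 with p73 shRNA (-2.04 and -2.03). The EGF-family ligands NRG1 (1338 and 323) and HBEGF (491 and 124) had ratios of -2.01 and -1.89, and FGF2 2253 and 926 (-1.27). MET, the receptor of hepatocyte growth factor, was lower as well, at 3310 and 1453 (-1.18; -0.84 with p73 shRNA).

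Of 11 kept feedback genes of the ERK kinases, 4 were at least 2-fold higher (36.4% against 5.65% of all genes) and none that much lower. The ETS factors ETV1 (116 and 617; 2.30) and ETV5 (216 and 559; 1.33) led, followed by the phosphatase DUSP6 (324 and 807; 1.29) and SPRED2 (1.08). The insulin-like growth factor system had 4 of 7 at least 2-fold higher (57.1% against 5.65%) and 1, IGFBP3 (-1.52), lower (14.3% against 2.63%). IGFBP6 went from 679 to 2822, and from 643 to 2843 with p73 shRNA (2.04 and 2.13), and IGFBP4 and IGFBP7 had ratios of 1.17 and 1.04. IGF1R, the receptor, had 250 and 538 (1.07). PDGFRA, a receptor that also marks fibroblasts, was at 1.11, against 2.13 with p73 shRNA.

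Immediate early factors were also divided. EGR1 had 197 and 855, and 188 and 827 with p73 shRNA (2.05 and 2.07), and KLF4, a factor of growth arrest, 238 and 782 (1.67). DUSP1, a phosphatase of stress kinases, was lower, at 1709 and 736 (-1.20), and so was the small GTPase gene RHOB (-1.10). FOS, FOSB and ATF3 were below the filter.

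YAP and TAZ, the effectors of the Hippo pathway, leave the nucleus in dense cultures. Of 31 kept genes of the pathway 6 were at least 2-fold lower (19.4% against 2.63% of all genes) and 1 at least 2-fold higher (3.23% against 5.65%). The 17 targets included 5 of the 6 (29.4% against 2.63% of all genes), with 14 of 17 lower and a median of -0.46. F3, tissue factor, had 2469 and 810 (-1.59), GADD45B, a stress sensor, 861 and 196 (-2.07), and CCN1, a matricellular protein, 8765 and 4592 (-0.93). The core kinases and effectors moved less, with YAP1 at 472 and 453 (-0.06) and TEAD4, a DNA-binding partner, at -1.04. WWTR1, which encodes TAZ, was at 1.28 by its brightest probe set, but 1 of its 3 bright probe sets stood at -0.13. ANKRD1, a frequently used YAP target, was below the filter.

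Of 32 kept genes of the actin cytoskeleton and its regulator SRF, 3 were at least 2-fold lower (9.4% against 2.63%) and none that much higher. These were ACTC1, an alpha actin (479 and 157; -1.54), SMTN, smoothelin (1413 and 516; -1.43), and ZYX, a focal adhesion protein (2641 and 978; -1.42), and the ratios with p73 shRNA were -1.67, -1.52 and -1.39. SRF itself had 463 and 234 (-0.95). The bright structural genes were nearly level, with ACTB at -0.13 and VCL at -0.10, and MYH10, a non-muscle myosin, stood at 0.81. Of 9 kept integrin genes none passed 2-fold, where 8.29% of all genes did, so the count says little about so few genes. Of 16 kept genes of cadherins and junctions 8 were higher and 8 lower; past 2-fold were 1 upward, CADM1 (1.19), and 1 downward, PCDH9 (-1.34), or 6.25% each way against 5.65% and 2.63%.

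Collagens and other matrix genes were on the higher side. Of 31 kept collagens and collagen enzymes 6 were at least 2-fold higher (19.4% against 5.65%) and none that much lower, with a median of 0.57. Dividing by array medians gave 2. Among the 6, P4HA1 and P4HA2 were also on the hypoxia list and are described with it. COL3A1, a fibrillar collagen, went from 5610 to 12916 (1.20; 1.65 with p73 shRNA), COL11A1 from 1472 to 3260 (1.14), and COL6A3, of the beaded filaments, from 4298 to 9124 (1.08). COL1A1 had 16169 and 14788 (-0.13), and its 3 bright probe sets ran from -0.55 to 0.09.

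Of 31 kept matrix glycoproteins and proteoglycans 9 were at least 2-fold higher (29% against 5.65% of all genes) and none that much lower. Of 21 kept glycoproteins 7 were at least 2-fold higher (33.3% against 5.65% of all genes) and 4 were lower by less. LAMA4, a laminin chain, had 74.9 and 589 with ns shRNA and 207 and 979 with p73 shRNA (2.80 and 2.18). LAMB1 had 966 and 2958 (1.60; 0.78 by its other bright probe set), NID2 716 and 1942 (1.42) and NID1, which joins laminin to collagen IV, 1156 and 3079 (1.40). HSPG2, perlecan, had 169 and 577 (1.71) but 354 and 409 with p73 shRNA (0.20), and averaging its probe sets, of which the other was below the filter, gave 0.81 with ns shRNA.

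Of the 10 kept proteoglycans, 6 were higher and 4 lower, with a median of 0.13. Decorin and lumican, which regulate collagen fibrils, were the 2 at least 2-fold higher (20% against 5.65% of all genes). Decorin (DCN) went from 587 to 3184, and from 601 to 3032 with p73 shRNA (2.42 and 2.31), and lumican (LUM) from 1746 to 5199, and from 457 to 3020 (1.57 and 2.69). THBS2, an inhibitor of vessel growth, was at 1.75. Fibronectin (FN1) had 11366 and 9931 (-0.19), and its 5 bright probe sets ran from -0.29 to 0.23.

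Among 22 kept matrix proteases and inhibitors 4 were higher and 3 lower by at least 2-fold, or 18.2% and 13.6% against 5.65% and 2.63%. The protease inhibitor TIMP1 had 3872 and 8627 (1.15; 0.43 with p73 shRNA), and the plasminogen activator PLAT 527 and 1275 (1.26). The stromelysin MMP3 had 2336 and 752 (-1.62), and ADAMTS1, which cuts proteoglycans, 1706 and 381 (-2.13). Coagulation genes opposed each other: F3, which starts clotting, was lower as given above, and its inhibitor TFPI was higher by its brightest probe set (640 and 1894; 1.55), with 0.61 as the lowest of 4.

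Complement is a set of secreted proteins that tag targets for clearance. Of 10 kept genes 5 were at least 2-fold higher and 1 lower, or 50% and 10% against 5.65% and 2.63% of all genes. The 5 were 4 of the 12 components on the array, the other 8 being below the filter, and 1 of 6 kept regulators. C3, the central component, went from 702 to 3879, and from 974 to 3779 with p73 shRNA (2.45 and 1.94). The proteases C1R (298 and 1229) and C1S (230 and 889) had ratios of 2.00 and 1.90. SERPING1, the inhibitor of those proteases, had 49 and 337 (2.52; 1.18 with p73 shRNA). Like C1RL, with 62.1 and 47.6 on the sparse arrays, it reached the filter level on the dense arrays alone. The other regulators were divided, with C1QBP at -1.16, CD55 at -0.45 and CLU, clusterin, at 0.77.

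Of 21 kept chemokines, cytokines and receptors 7 were at least 2-fold higher (33.3% against 5.65% of all genes) and 1 lower (4.76% against 2.63%). CCL2, which attracts monocytes, had 2457 and 8674 with ns shRNA and 1777 and 11754 with p73 shRNA (1.81 and 2.72), and the related CCL7 66.7 and 334 (2.14). IL1B had 803 and 3154 (1.96), CXCL6, a neutrophil attractant, 264 and 843 (1.63), and CSF3 73.4 and 284 (1.80). CCL7 and CSF3 reached the filter level on the dense arrays alone, so they passed it only where they were high. CXCL12, which acts on CXCR4, was the member lower by 2-fold, at 5400 and 2599 (-1.05; -0.88 with p73 shRNA).

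Of 9 kept genes of prostaglandin synthesis and reception 4 were at least 2-fold higher (44.4% against 5.65%) and none lower; the median of the 9 was 0.08, and -0.12 after dividing by array medians. PLA2G4A, which frees arachidonic acid, had 113 and 280 (1.23), PTGS2, the inducible cyclooxygenase, 611 and 1448 (1.23), and the synthase PTGES was among the 15 highest, while PTGES2, another synthase of the same step, stood at -0.65. PTGES reached the filter level on the dense arrays alone. Of 18 kept genes of NF-kB, a factor that drives such genes, 5 were higher and 1 lower by at least 2-fold (27.8% and 5.56%, against 5.65% and 2.63%). TNFAIP6, a secreted hyaluronan-binding protein, had 152 and 546 (1.77), and the subunit NFKB2 177 and 383 (1.07), but the other bright probe set of NFKB2 stood at 0.31.

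Of 47 kept genes of the interferon response 8 were at least 2-fold higher (17% against 5.65% of all genes) and none that much lower. With p73 shRNA 14 were at least 2-fold higher. Dividing by array medians gave 3 with ns shRNA. IFITM1, a membrane protein that blocks virus entry, had 790 and 3556 with ns shRNA and 1651 and 6488 with p73 shRNA (2.15 and 1.97). IFIH1, a sensor of double-stranded RNA, had 127 and 292, and 46.8 and 429 (1.13 and 2.92). Of 13 kept genes of MHC class I and its loading 11 were higher and 3 at least 2-fold (23.1% against 5.65%). These were the loading chaperone TAPBP (1.35), HLA-F (1.01) and HLA-G (1.00). HLA genes are near-identical in sequence, so their probe sets may share signal.

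Sterols are sensed by INSIG and SREBP proteins, which switch the synthesis genes, and by the LXR receptors, which switch export. Of 25 kept cholesterol genes 5 were at least 2-fold higher (20% against 5.65% of all genes) and none that much lower. Of the 5, 3 were regulators rather than enzymes, among them INSIG2, which was also on the hypoxia list. Dividing by array medians gave 3 genes at least 2-fold higher. INSIG1, which holds SREBP in the endoplasmic reticulum, went from 633 to 2278 (1.83; 2.18 with p73 shRNA), INSIG2 from 219 to 701 (1.63) and SREBF1, which encodes an SREBP, from 122 to 467 (1.84). The enzymes LSS and SQLE stood at 1.10 and 1.01 by their brightest probe sets, and both dropped below 2-fold when arrays were divided by their medians or probe sets were averaged.

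SCD, which puts the double bond into fatty acids, had 589 and 3569 with ns shRNA and 596 and 3792 with p73 shRNA (2.58 and 2.65). It was 1 of 2 genes at least 2-fold higher among 12 kept genes of fatty acid synthesis (16.7% against 5.65% of all genes). None was lower by 2-fold. The other was LPIN1, a phosphatidate phosphatase, at 1.07 by its brightest probe set and 0.51 by the other bright one. LPIN1 was under 2-fold after quantile normalization (0.95), dividing by array medians (0.87) or averaging probe sets (0.49). The carboxylase ACACA stood at 0.47 by its brightest probe set and at -0.81 by the other. Of 7 kept LXR and export genes 4 were at least 2-fold higher (57.1% against 5.65% of all genes). The cholesterol exporter ABCA1 had 39 and 256 (2.41), MYLIP, which degrades the LDL receptor, 77.8 and 485 (2.48; 1.47 with p73 shRNA), and PLTP, a lipid transfer protein, 165 and 432 (1.33). ABCA1 reached the filter level on the dense arrays alone.

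FOXO factors are held out of the nucleus by insulin and growth factor signals and drive genes of rest and stress resistance. Of 21 kept genes of this group 8 were at least 2-fold higher (38.1% against 5.65% of all genes) and 2 lower (9.52% against 2.63%). The 21 had a median of 0.75, and several were shared with the hypoxia or cell cycle lists. Of those that were not, TRIB2 had 56.8 and 326 (2.30), BTG1, an inhibitor of proliferation, 2641 and 6226 (1.23), and YPEL5 569 and 1579 (1.45). TRIB2 reached the filter level on the dense arrays alone. The lower ones were the stress genes GADD45A (3369 and 965; -1.79) and GADD45B. FOXO3 itself was at 0.78, against 0.24 with p73 shRNA.

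**Figure D4:**
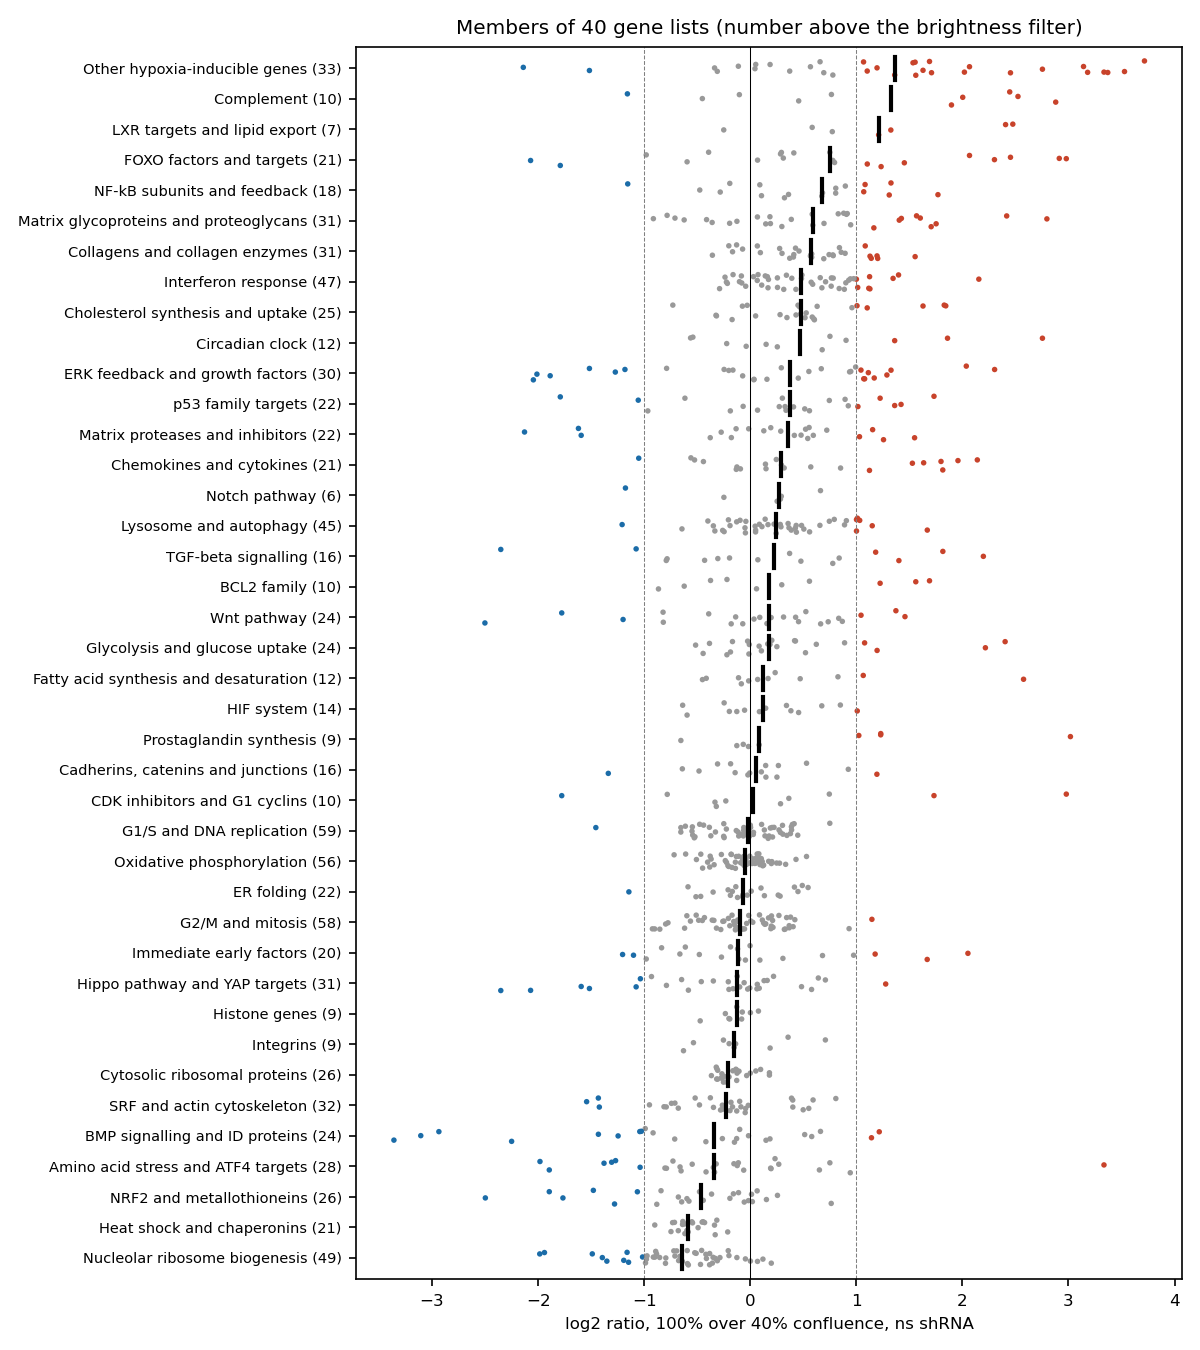
Log2 ratio of 100% over 40% confluence with ns shRNA for each kept member of 40 gene lists, ordered by the list's median (black bar), with the number of kept genes in brackets. Red points are at least 2-fold higher and blue points at least 2-fold lower; vertical position within a row has no meaning. The hypoxia list has the highest median (1.36), followed by complement (1.33), and the nucleolar list the lowest (-0.64). After quantile normalization the median of complement (1.27) lay above that of the hypoxia list (1.24).

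Of the 560 genes past 2-fold, 377 were on none of the 40 lists. Among the 15 highest, PAMR1, a secreted protein with protease-like domains, had 63.1 and 620 with ns shRNA and 119 and 545 with p73 shRNA (3.08 and 2.10). Among the 15 lowest, OXTR, the oxytocin receptor, had 5748 and 887, and 3922 and 586 (-2.68 and -2.72). CD24, a small surface glycoprotein, had 1192 and 213 (-2.42), and PODXL, an anti-adhesive sialomucin, 661 and 126 (-2.29; -2.77 with p73 shRNA). TNFRSF12A, the receptor of the cytokine TWEAK, had 3577 and 819 (-2.11). SURF2 was dim in the dense ns culture, at 297 and 37.3 (-2.66; -1.57 with p73 shRNA).

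The ratios with both hairpins pointed the same way for most genes past 2-fold. Of the 382 genes at least 2-fold higher with ns shRNA, 372 were higher with p73 shRNA, and 218 (57.1%) were so by 2-fold, where with that hairpin 6.35% of all genes were. Of the 178 lower ones 173 were lower and 89 (50%) were so by 2-fold, where 2.62% of all genes were; past 2-fold either way with p73 shRNA were 8.97%. Among the 382 the median was 1.26 with ns and 1.13 with p73 shRNA. Since the genes were picked by the ns ratio, a smaller ratio in the other pair is built into that choice. The leukosialin gene SPN was an exception among the 15 lowest, with 205 and 21 with ns shRNA but 186 and 179 with p73 shRNA (-2.73 and -0.05). SIK2, a kinase of the salt-inducible family, had 58.9 and 238, against 142 and 145 (1.82 and 0.03). HABP4, a hyaluronan-binding protein, had 162 and 40.5, against 165 and 163 (-1.74 and -0.01). SPN, SIK2 and HABP4 are shown because their ratios differed between hairpins, and each had an ns value below the filter level. The ratio of SPN came from the only bright one of its 4 probe sets.

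**Figure D5:**
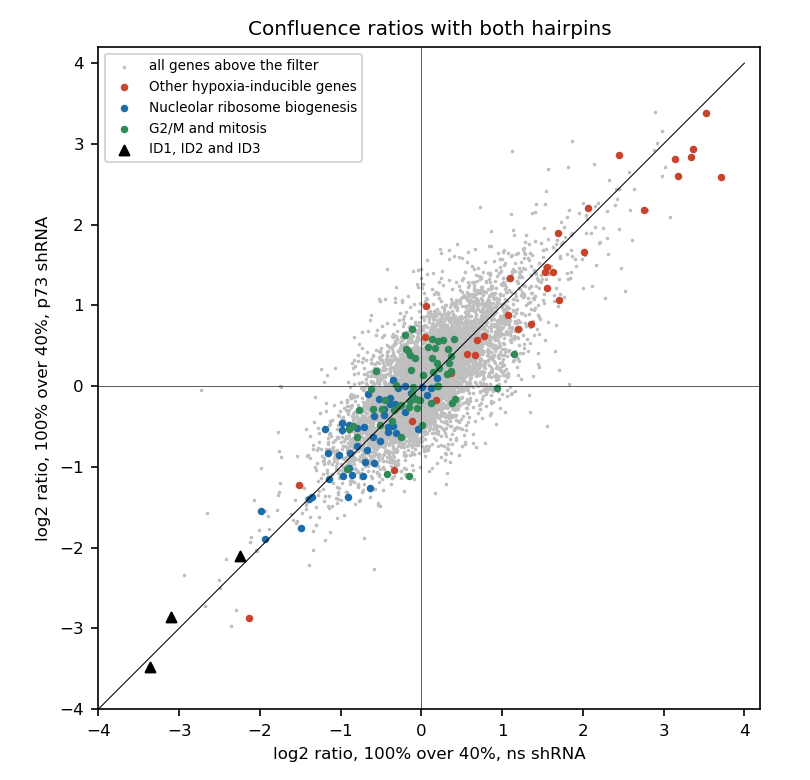
Log2 ratio of 100% over 40% confluence with p73 shRNA against that with ns shRNA for 6759 genes, 1 array in each of the 4 groups; the diagonal marks equal ratios. Of the 382 genes at least 2-fold higher with ns shRNA 372 lie above 0 with p73 shRNA, and ID1, ID2 and ID3 lie near the diagonal at the lower left.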

How the data were processed

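Total RNA of the 4 cultures was extracted with trizol and biotin-labelled, per the labels, with the standard Affymetrix protocol. The authors deposited 1 linear intensity for each of 22277 probe sets per array; which software produced it is not stated in the labels. From the values, every array was scaled to a mean of about 500.1 after trimming 2% at each end, which hides any shift common to most of the signal. Groups came from the sample titles, and precision is limited by the number of arrays.

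Of 22215 probe sets that are not controls, 19064 had 1 gene symbol, 1043 several and 2108 were not listed and stayed unnamed; 19052 were updated by Entrez ID to RefSeq symbols. Values were converted to log2(intensity + 11.5), the 20th percentile of all values, which understates ratios of dim genes. A gene took its brightest probe set by the mean over the 4 arrays, and passed the filter if the mean was at least the probe set median (6.94 on the log2 scale); 3737 of the 6759 kept genes had a single probe set. Past 2-fold means a size of 1 or more. Promoters came from RefSeq (GRCh38.p14).

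The members and the 40 lists were chosen with earlier results of these data known, and the lists support nothing on their own. The 251 genes named by rule were the 15 highest and 15 lowest, up to 5 of each list by size and 1 of each role, 6 from either end of the ns minus p73 shRNA ratio, and preset genes. Other genes, the printed promoters and the motif pairs shown were chosen after their values were seen. Alternatives were other scalings, pseudocounts, filters, probe set rules and thresholds. The calculation of the ratios was checked on simulated data, which tests no ratio of these arrays. Python 3.11.15, pandas 2.3.3, numpy 2.4.6 and matplotlib 3.10.9 were used.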

Additional observations from a re-analysis of the deposited data

Results flagged for a closer look

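For 10 of the genes named, the ratio of 100% over 40% confluence had opposite signs with ns and p73 shRNA and the difference between both ratios exceeded 0.74, the 90th percentile of the difference between probe sets of the same gene. With 1 array in each group these differences were not tested. The genes named include the 6 from either end of that difference, for which a large difference was built into the choice. The 0.74 was measured between probe sets for the ns ratio alone, so it is no error of a difference between hairpins.

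Higher with ns shRNA than with p73 shRNA was the ratio of GSTM2, a glutathione transferase, at 1.56 against -0.49 (difference 2.05). CACNG4, a calcium channel subunit, had 1.35 against -0.32 (1.67), and THAP3 0.30 against -1.21 (1.51). The Notch and BMP target HEY1 had 0.66 against -0.43 (1.09), and the mitotic kinase CDK1 0.93 against -0.02 (0.96), with the lowest of its 3 bright probe sets at -0.07 with ns shRNA. GSTM2 belongs to a family of near-identical genes, so its probe set may share signal.

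Lower with ns shRNA was the ratio of SBNO1, at -0.43 against 1.46 (difference -1.88). SNX11, a sorting nexin, had -1.75 against 0.01 (-1.76), and its second bright probe set stood at -0.24 with ns shRNA. XRCC2, of recombination repair, had -0.52 against 1.08 (-1.60). ACSL4, which activates fatty acids, had -0.45 against 1.08 (-1.53), and MCOLN1, a lysosomal channel, -1.21 against 0.05 (-1.25).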

How the results depend on the processing

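No paired analysis of the ns shRNA comparison alone was possible because each group held 1 array and the replicate numbers are only names. No ratio past 2-fold of a named gene, and no list median of 1 or more, changed sign under any alternative that gave it a value. For genes at least 2-fold higher with ns shRNA (382), the counts were 226 after dividing by array medians, 1025 with no filter, 182 with a filter at the 70th percentile, 198 among genes with a single probe set, 1057 at 1.5-fold and 95 at 3-fold; for those lower (178) they were 332, 669, 110, 105, 691 and 36. With p73 shRNA the first 4 settings gave 271, 1151, 196 and 221 higher, and 342, 773, 102 and 117 lower. Dividing by array medians gave 3 cholesterol, 2 collagen, 3 interferon and 4 growth factor genes higher and 17 nucleolar genes lower. The filter at the 70th percentile left 3 cholesterol, 3 complement, 5 interferon and 4 chemokine genes higher, and no filter gave 11 chemokine genes. Averaging probe sets gave 3 cholesterol and 4 growth factor genes, and the 40th percentile pseudocount 4 interferon genes. Among genes with a single probe set, which are fewer, 11 hypoxia, 2 cholesterol, 4 matrix glycoprotein, 3 collagen, 4 interferon, 2 growth factor and 3 FOXO genes were higher, and 4 BMP, 2 Hippo and 0 growth factor genes lower. The fewer genes tested account for part of the filtered and single probe set counts, and for other settings the cause was not tested. Of 155 named genes past 2-fold, 131 stayed so after dividing by array medians and 145 after quantile normalization. Of 42 with several bright probe sets, all their probe sets agreed in sign for 40, with CDC25A and WWTR1 as exceptions. For 25 of the 42 all were at least 2-fold the same way. Among all genes with several bright probe sets, 124 were at least 2-fold higher by the brightest. The second brightest was higher for 115 of them and at least 2-fold higher for 56. For 52 genes at least 2-fold lower, the second brightest was lower for 48 and at least 2-fold lower for 25. Which list counts were followed here was chosen after seeing the data. Signal over background limits what can be seen: a gene below the filter is not shown to be absent.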

Other observations

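Further gene groups are described here for the sparse and the dense ns culture. Of 12 kept circadian clock genes 3 were at least 2-fold higher (25% against 5.65% of all genes) and none that much lower. Besides BHLHE40 and BHLHE41, the repressor NFIL3 went from 525 to 1937 with ns shRNA and from 409 to 1559 with p73 shRNA (ratios 1.86 and 1.90), and PER2, a core repressor of the clock, had 161 and 278 (0.75). Of 24 kept lysosomal hydrolases 5 were at least 2-fold higher (20.8% against 5.65%) and none that much lower, with a median of 0.40. With p73 shRNA 1 of the 24 was at least 2-fold higher, where 6.35% of all genes were, and the median was 0.31. FUCA1, which removes fucose, had 143 and 480 (1.67; 1.76 with p73 shRNA), and the collagen-degrading cathepsin CTSK 1564 and 3142 (1.00). Dividing by array medians gave 1 gene of the whole lysosome and autophagy list at least 2-fold higher in place of 6.

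Of 24 kept Wnt pathway genes 3 were higher and 3 lower by at least 2-fold (12.5% each way, against 5.65% and 2.63%). The Wnt antagonist DKK1 was among the lowest ratios, with 11687 and 2054 with ns shRNA and 9767 and 1842 with p73 shRNA (-2.50 and -2.40), while the antagonist SFRP1 was higher, at 2841 and 7827 (1.46). The related ligands WNT5A and WNT5B stood on opposite sides, at 2714 and 5610 (1.04) and at 2385 and 1032 (-1.20), and at 1.23 and -1.36 with p73 shRNA. Of 22 kept p53 family targets 5 were at least 2-fold higher and 2 at least 2-fold lower (22.7% and 9.09%, against 5.65% and 2.63% of all genes). The potassium channel gene KCNK1 had 150 and 421 (1.42), and the repair gene DDB2 144 and 387 (1.36). The Notch ligand JAG1 had 371 and 158 (-1.18) but 84.2 and 71.4 with p73 shRNA (-0.21).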
